A study of Homo sapiens with 22 samples.

Results

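Genes that repair DNA, or that halt the cell cycle while DNA is repaired, were followed in HUDEP-2 cells that lack the histone variant H2A.X or the kinase BAZ1B. The members were a list of 44 gene symbols. The list used no measured value directly, but it was chosen with earlier results of these data known. All 44 were found among the 59087 gene names of both count tables and passed the filter on low counts in both experiments. By their main role, 9 act in homologous recombination, 8 in break sensing and end resection (with the helicases BLM and WRN), 5 in non-homologous end joining (with RIF1), 5 in single-strand break repair, ligation and theta-mediated end joining, 8 in the Fanconi anemia pathway, 2 in mismatch repair, 4 in checkpoint signalling and 3 in nucleotide excision repair. The question was whether loss of H2A.X or BAZ1B changes the transcripts of these pathways.

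The HUDEP-2 line consists of immortalized erythroid progenitors of human origin, which expand in one medium and mature in another. RNA-Seq libraries were made at D0, in expansion, and at D6 of differentiation. The H2A.X experiment held 2 H2A.X WT and 3 H2A.X KO libraries at each day, and the BAZ1B experiment held 3 BAZ1B WT and 3 BAZ1B KO libraries at each day, 22 in all. KO cells were subclones, each grown from a single sorted cell with a homozygous CRISPR/Cas9 deletion, which spanned the coding sequence of H2A.X but only the first exon of BAZ1B, and WT cells were subclones taken through the same steps. Every group was cultured with SCF, erythropoietin and doxycycline, and D0 cells also with dexamethasone. The labels do not say whether libraries of a group came from separate cultures, so the p-values cover the spread between these libraries.

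Double-strand breaks are sensed by the MRE11-RAD50-NBN complex, and H2A.X phosphorylated around the break holds repair and checkpoint proteins there. Broken ends are either joined directly by the Ku proteins and ligase IV, or cut back to single strands and copied from the sister chromatid with the help of BRCA1, PALB2 and BRCA2. Most genes of recombination, crosslink repair and the replication checkpoint are transcribed mainly in cells that replicate their DNA, and erythroid progenitors divide rapidly until the last steps of maturation.

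Many repair genes carry promoter motifs of cell cycle control, and RefSeq promoter windows (GRCh38.p14) were matched for 39 of the 44 members. The 250 bases before each start were searched on both strands for E2F sites (TTTCCCGC, TTTCGCGC, TTTGCCGC or TTTGGCGC), for the CHR element TTTGAA, and for the CCAAT box, and none of these motifs contains another. An E2F site was found in 5 members (FANCA, FANCC, LIG1, PMS2 and XPC), 12.8%, against 3.4% of 27305 genes, a CHR in 7 (17.9% against 16.1%) and a CCAAT box in 21 (53.8% against 37%). These are matches of letters and not measured binding. The windows shown are those of members described below whose windows lie outside every annotated exon and hold a motif, printed 5′ to 3′ on the gene's strand with each motif in capitals. USP1 holds a pair of CHR elements, POLQ 1 CHR, DDB2 and CLSPN 3 CCAAT boxes each and FANCM 2, where ATTGG is the CCAAT box read from the other strand.
USP1, chr1:62436799-62437048, plus strand: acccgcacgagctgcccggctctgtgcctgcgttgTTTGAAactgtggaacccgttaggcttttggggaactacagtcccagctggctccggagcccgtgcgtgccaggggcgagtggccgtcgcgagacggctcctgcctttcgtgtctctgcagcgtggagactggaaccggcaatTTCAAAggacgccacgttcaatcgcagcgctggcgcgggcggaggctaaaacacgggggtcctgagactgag
POLQ, chr3:121545989-121546238, minus strand: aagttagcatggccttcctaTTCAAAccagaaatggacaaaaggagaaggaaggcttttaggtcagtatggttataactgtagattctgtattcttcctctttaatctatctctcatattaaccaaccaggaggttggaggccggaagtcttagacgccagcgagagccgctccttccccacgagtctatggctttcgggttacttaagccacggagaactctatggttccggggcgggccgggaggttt
CLSPN, chr1:35769979-35770228, minus strand: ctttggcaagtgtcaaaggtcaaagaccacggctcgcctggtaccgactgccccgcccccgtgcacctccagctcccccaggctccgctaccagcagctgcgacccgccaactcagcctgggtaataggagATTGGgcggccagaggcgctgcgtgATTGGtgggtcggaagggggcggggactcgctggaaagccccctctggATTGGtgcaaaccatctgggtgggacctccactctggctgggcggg
FANCM, chr14:45135680-45135929, plus strand: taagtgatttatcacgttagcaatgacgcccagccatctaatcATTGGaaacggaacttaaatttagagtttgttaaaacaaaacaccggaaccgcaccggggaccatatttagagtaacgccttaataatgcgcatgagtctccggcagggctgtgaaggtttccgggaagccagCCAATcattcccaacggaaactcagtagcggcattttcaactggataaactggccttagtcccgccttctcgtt
DDB2, chr11:47214204-47214453, plus strand: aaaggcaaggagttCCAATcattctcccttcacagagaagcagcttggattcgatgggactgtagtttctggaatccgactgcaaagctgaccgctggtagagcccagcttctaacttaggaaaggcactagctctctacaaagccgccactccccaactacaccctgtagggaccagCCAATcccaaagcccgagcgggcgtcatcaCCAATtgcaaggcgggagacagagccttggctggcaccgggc

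Library totals were 11910141 to 21013004 counts in the H2A.X experiment and 33199408 to 41273244 in the BAZ1B experiment. The targeted gene H2AFX (H2A.X) had normalized counts of 1575 and 1969 in WT and 333, 787 and 760 in H2A.X KO at D0, and of 1748 and 2391 against 308, 1050 and 799 at D6. It fell at both days (adjusted p = 0.0304 and 0.0233 by edgeR), by 1.52 on the log2 scale at D6, kept counts in every KO library, and was not called after the correction for length and GC content described next (adjusted p = 0.261 and 0.553). The gene BAZ1B fell by 0.40 on the log2 scale in BAZ1B KO at D0 (adjusted p = 0.00415 by edgeR's quasi-likelihood test) and by 0.38 at D6 (adjusted p = 0.0025), and most of its transcript lies outside the deletion. All 15 erythroid markers were detected in 7 of the 8 groups, with HBG1 at 0 in the 3 BAZ1B KO libraries at D0, and 9 markers of T cells, B cells and monocytes together reached at most 6.54 CPM. The summed erythroid markers at D0 ranged over 24880-32809 CPM (counts per 1e6 counts) among H2A.X WT libraries and 13816-17759 among KO libraries, and at D6 over 37931-63353 and 44627-76097. The 10 markers of mast cells and eosinophils ranged at D0 over 104-140 CPM for H2A.X WT and 212-429 for KO, and at D6 over 145-232 and 3.52-14.5, with PRG3 at 0 in all 4 groups. Their part in the results below was not tested.

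A further property separated the H2A.X KO from the WT libraries. Over 12017 genes with a known transcript, the log2 fold change of KO against WT rose with transcript length, with a Spearman correlation of 0.545 at D0 and 0.602 at D6. In the BAZ1B experiment the same correlations over 12408 genes were -0.030 and 0.052. The column names of all 3 H2A.X KO libraries at D0 and of KO replicates 1 and 2 at D6 carry the word Redo, whose meaning is not given in the sources used here, and the WT libraries and KO replicate 3 at D6 do not. At D0 this mark and the genotype cannot be told apart. Long transcripts are common among repair genes, so the main H2A.X results are given beside a fit in which each library was corrected for transcript length and GC content.

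In H2A.X KO cells, 14 of the 44 transcripts rose and 3 fell against WT at D0, and 23 rose and 2 fell at D6. Among all 13236 genes tested, 18.4% rose and 16.7% fell at D0, and 22.2% rose and 20.9% fell at D6. The median log2 fold change of the members was 0.30 at D0 and 0.54 at D6, while that of all genes was 0.01 and -0.01. At D6 all 8 genes of break sensing and end resection rose, as did 5 of 9 genes of homologous recombination, 4 of 8 of the Fanconi anemia pathway, 2 of 2 of mismatch repair and 2 of 4 of checkpoint signalling. In the remaining pathways 1 gene each of end joining (RIF1) and of the theta-mediated group (POLQ) rose, XRCC4 and ERCC1 fell, and none of the nucleotide excision repair genes rose.

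With the correction for length and GC content, 1 member rose (RIF1) and 1 fell (ERCC1) at D0. At D6, 9 members rose (BARD1, EXO1, DNA2, RIF1, XRCC1, LIG1, USP1, PMS2 and TOPBP1) and 1 fell (ERCC1). In the same fit 11.5% of all genes rose and 8.94% fell at D0, and 11.4% rose and 9.94% fell at D6. The corrected medians were 0.12 at D0 and 0.22 at D6, against 0.07 and 0.05 for all genes. A called gene is one with a Benjamini-Hochberg adjusted p below 0.05 over all genes tested, by edgeR's quasi-likelihood test. Leaving out WT replicate 2 left 1 WT library at that day, and calls were lost among the members and among nearly all genes alike. The median log2 fold change of the members was then 0.17 at D0 and 0.46 at D6. Without KO replicate 1, 2 or 3 at D0, 6, 8 and 7 members were called, and 2550, 2924 and 2714 of all genes. Upper-quartile scaling gave 12 higher and 5 lower members at D0, with 4625 of all genes called.

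**Figure D1:**
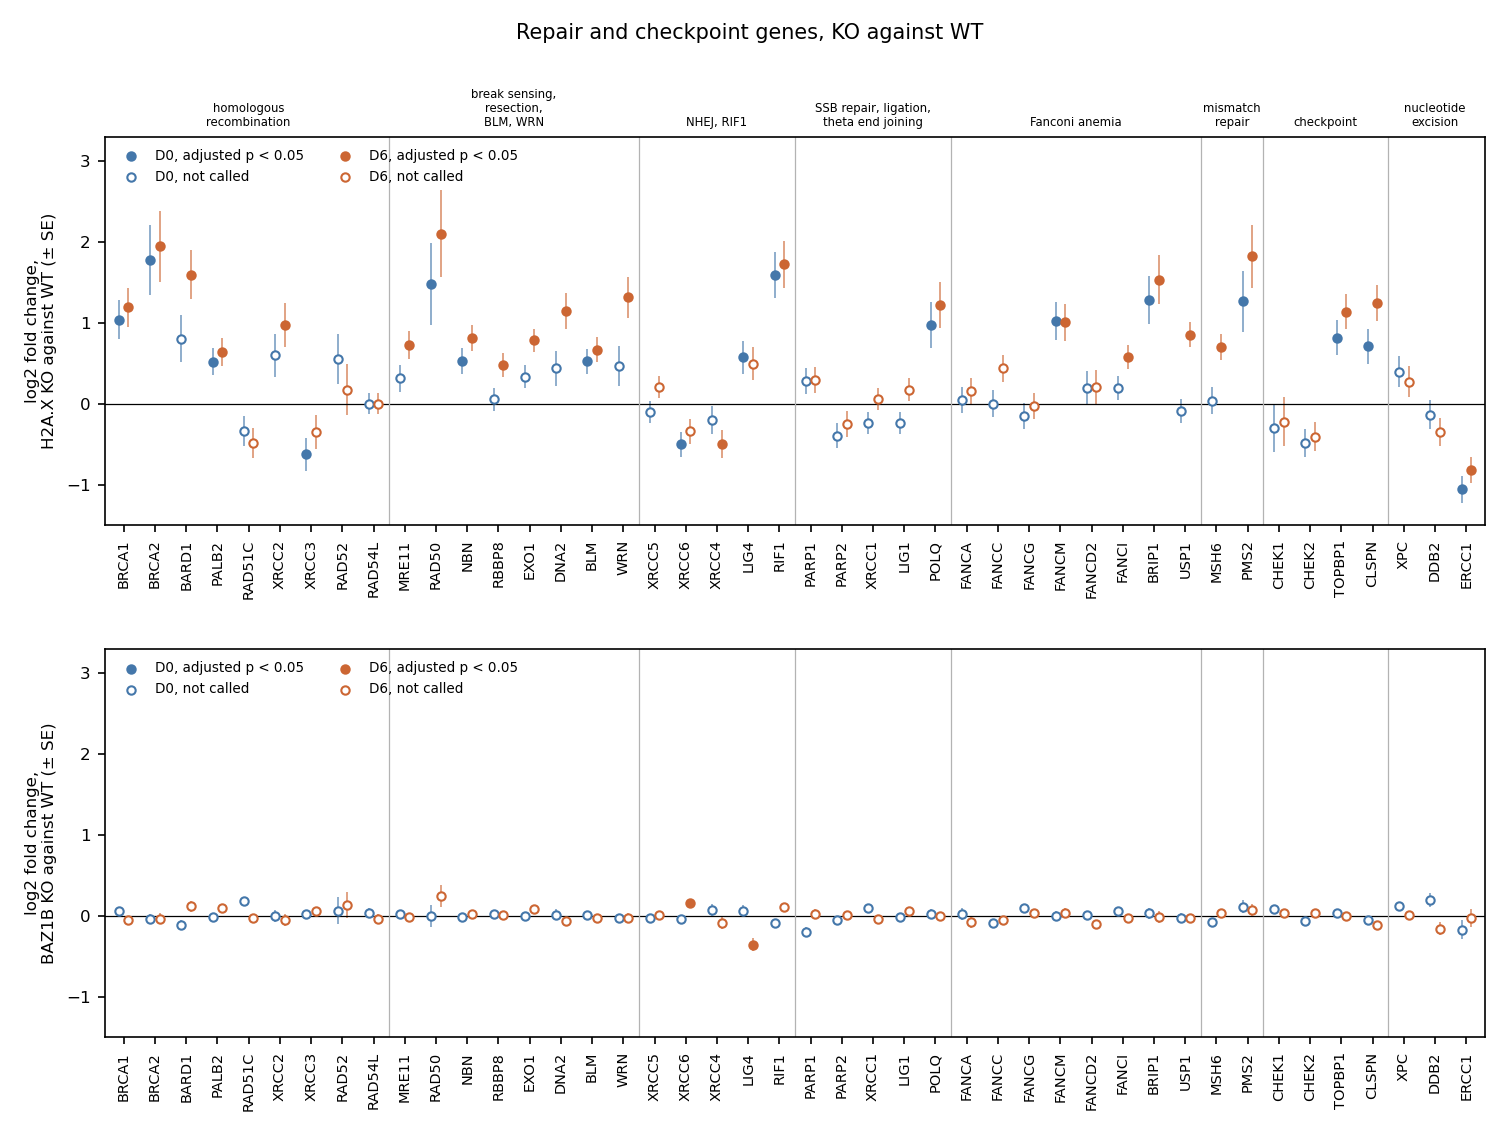
Log2 fold change of KO against WT (vertical axis, with bars for the SE) for each of the 44 members, ordered by pathway, with the H2A.X experiment above and the BAZ1B experiment below. Blue is D0, orange is D6 and filled points have an adjusted p below 0.05, and the H2A.X values spread from -1.06 to 2.10 while those of the BAZ1B experiment lie between -0.35 and 0.25.

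The rise of the members in H2A.X KO followed their transcript length closely. Across the 44 members, which share libraries and differ also in base composition, the Spearman correlation of fold change and length was 0.824 at D0 and 0.858 at D6, and 0.281 and 0.414 after the correction. Of the 22 members with transcripts longer than 4196.5 bases, the median length, 12 rose at D0 and 19 at D6, and none fell. Among all genes of that length, 42% rose at D0 and 50.8% at D6. Of the 22 shorter members, 2 rose and 3 fell at D0 and 4 rose and 2 fell at D6, where 8.2% of all shorter genes rose and 23.7% fell at D0 and 10.1% rose and 29.3% fell at D6. In the BAZ1B experiment the correlation over the members was -0.225 at D0 and -0.039 at D6.

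**Figure D2:**
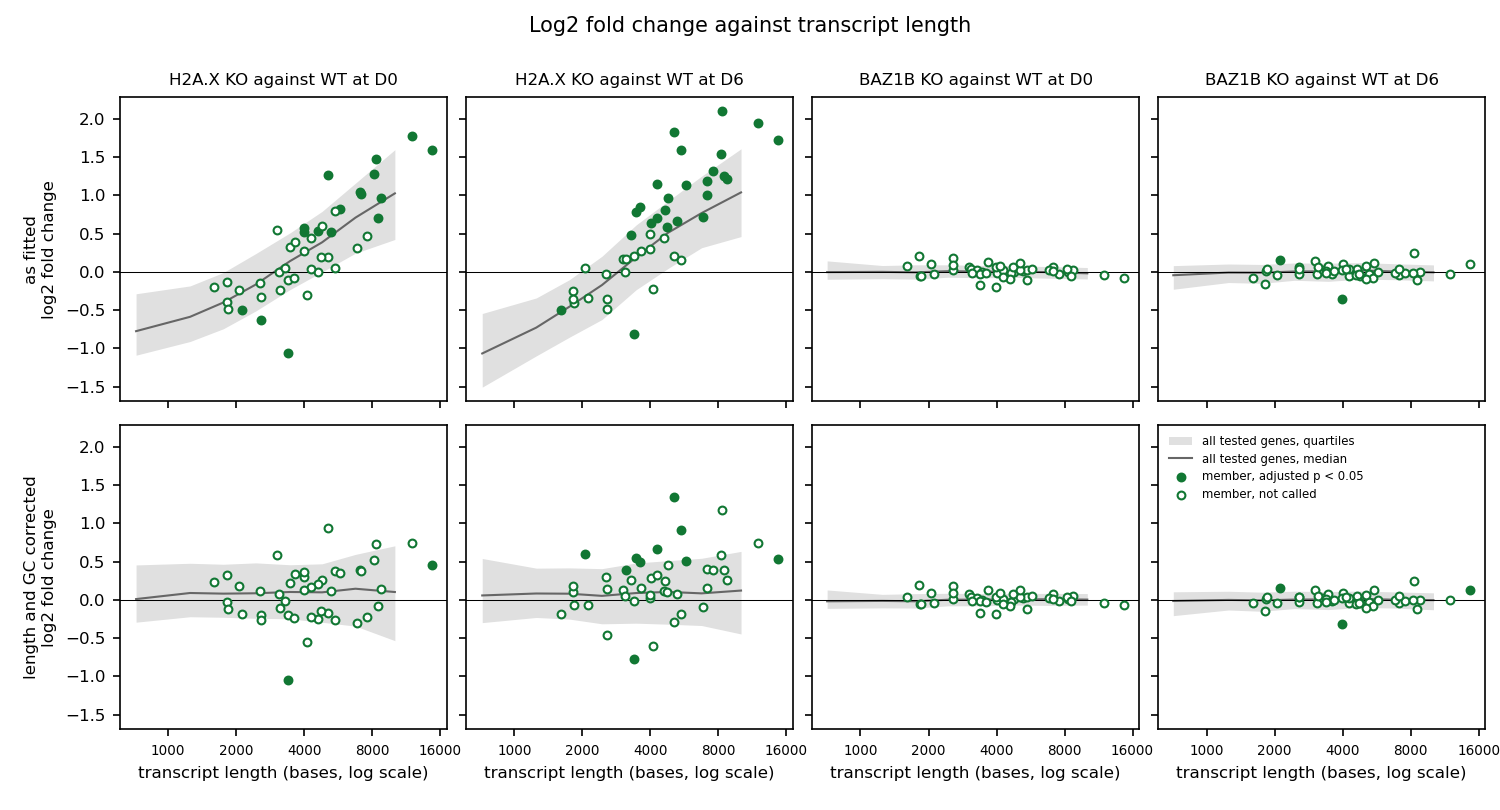
Log2 fold change of KO against WT plotted against transcript length in bases on a log axis, for both experiments at D0 and D6, as fitted (upper row) and with the length and GC correction (lower row), where points are members (filled if called) and the line and band are the median and quartiles of all tested genes in length bins. In the upper H2A.X panels the line and most members climb with length while ERCC1 (-1.06 at D0) lies well below the line, and in the lower panels and for BAZ1B the line is nearly flat.

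KO replicate 3 at D6, the D6 KO library without the word Redo, stood between the WT and the other KO libraries for the long members. Their median deviation from the WT mean was 1.31 and 1.24 on the log2 scale in KO replicates 1 and 2 at D6 and 0.82 in replicate 3, and 0.69, 0.63 and 0.73 in the 3 KO libraries at D0. Both WT libraries lay 0.25 to either side of their mean at D0 and 0.17 at D6. The deviation from the WT mean was also correlated with length over all genes with a known transcript. The Spearman correlation was 0.609, 0.557 and 0.560 in KO replicates 1, 2 and 3 at D6, and 0.517, 0.532 and 0.556 at D0. In WT replicates 1 and 2 it was 0.468 and -0.468 at D0, and 0.383 and -0.383 at D6. With 2 WT libraries at each day, their deviations from their own mean are necessarily equal and opposite. With the correction and without KO replicate 3 at D6, 17 members rose and 2 fell (ERCC1 and FANCD2) at that day. This alternative was chosen after the data were seen. Among the 13196 genes tested in that fit, 20.6% rose and 14.4% fell.

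Among genes of homologous recombination, BRCA1, BRCA2 and PALB2 rose at both days. BRCA1 (chr17:43044295-43170245, minus strand, GRCh38), which guides the choice of recombination, had normalized counts of 1230 and 909 in WT and 2560, 1993 and 2047 in KO at D0. At D6 it had 1315 and 957 in WT and 3068, 2776 and 1956 in KO. All KO libraries lay above both WT libraries, and the log2 fold change was 1.04 ± 0.24 (SE, adjusted p = 0.0118) at D0 and 1.19 ± 0.24 (adjusted p = 0.00538) at D6.

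BRCA2 (chr13:32315086-32400268, plus strand), a mediator of strand exchange, had 470 and 227 in WT and 1348, 1090 and 1160 in KO at D0, and 465 and 324 against 2072, 1777 and 734 at D6. KO replicate 3 at D6 was well below its group, though still above WT. The log2 fold change was 1.78 ± 0.44 (adjusted p = 0.0138) and 1.95 ± 0.44 (adjusted p = 0.00744), and neither BRCA1 nor BRCA2 was called after the correction, with adjusted p of 0.0822 and 0.0629 at D0 and 0.074 and 0.062 at D6. BARD1 (chr2:214725646-214809683, minus strand), the partner of BRCA1 in its ubiquitin ligase, had 342 and 200 in WT and 484, 464 and 470 in KO at D0, and 274 and 211 against 870, 852 and 489 at D6. At D6 it was 3.03-fold higher (adjusted p = 0.00453), and it kept a log2 fold change of 0.91 (adjusted p = 0.0227) after the correction. At D0 its log2 fold change was 0.80 (adjusted p = 0.054), and the test of D6 against D0 effects gave an adjusted p of 0.395.

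Of the recombination genes with transcripts below the median length, PALB2 (4008 bases) rose at both days, while XRCC3, RAD51C, RAD54L and RAD52 did not. RAD52, with 3023 bases, had 158 and 92.1 in WT and 184, 159 and 208 in KO at D0. At D6 it had 143 and 165 in WT and 132, 154 and 234 in KO, and it was not called at either day. XRCC3, a recombination factor with a transcript of 2567 bases, fell by 0.63 on the log2 scale at D0 (adjusted p = 0.0405) and had -0.35 at D6 (adjusted p = 0.197). RAD51C, its partner in a complex, with 2562 bases, had -0.33 and -0.48 (adjusted p = 0.179 and 0.0577). RAD54L, a motor protein of recombination, had normalized counts of 667 and 719 in WT and 672, 715 and 689 in KO at D0, and log2 fold changes within 0.01 of 0 at both days. XRCC3 shares 5756 exonic bases with KLC1, so its reads are uncertain.

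In break sensing and end resection, BLM (chr15:90717346-90816166, plus strand), the helicase lost in Bloom syndrome, had 997 and 855 in WT and 1412, 1306 and 1277 in KO at D0. At D6 it had 965 and 972 in WT and 1758, 1516 and 1346 in KO. It rose by 0.52 (adjusted p = 0.0261) and 0.67 (adjusted p = 0.00809), and had 0.11 and 0.08 after the correction, with adjusted p of 0.496 and 0.618.

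EXO1 (chr1:241847967-241895148, plus strand), the exonuclease of long-range resection and mismatch repair, had 1496 and 1348 in WT and 1785, 1825 and 1761 in KO at D0, and 1625 and 1317 against 2618, 2677 and 2304 at D6. KO lay above WT at both days without overlap. Its transcript of 3449 bases is below the median length, and its log2 fold change was 0.33 (adjusted p = 0.0948) at D0 and 0.78 ± 0.15 (adjusted p = 0.0045) at D6, where it kept 0.55 (adjusted p = 0.0155) after the correction. DNA2, the nuclease that works beside BLM, rose by 1.15 at D6 (adjusted p = 0.00483) and kept 0.66 (adjusted p = 0.0295).

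MRE11, NBN, RBBP8 and WRN also rose at D6, by 0.72, 0.81, 0.48 and 1.31 on the log2 scale, and none of these was called after the correction. The sign of MRE11 turned with the correction, to -0.10 at D6. RAD50 rose at both days, by 1.48 and 2.10 (adjusted p = 0.0448 and 0.0122), on normalized counts of only 14.3 to 114. RAD50 shares 8124 exonic bases with another gene annotated on the same strand, so the authors' counting could have split or dropped its reads and its values are uncertain.

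RIF1 (chr2:151409883-151508013, plus strand), which protects ends from resection and times replication, had the longest transcript of the list, 14662 bases. Its normalized counts were 1307 and 804 in WT and 3355, 3030 and 3199 in KO at D0, and 1253 and 1000 against 4544, 4141 and 2469 at D6. The groups did not overlap at either day, and the level was 3.02-fold higher at D0 (adjusted p = 0.00636) and its log2 fold change at D6 was 1.72 ± 0.29 (adjusted p = 0.00383). After the correction RIF1 kept 0.46 (adjusted p = 0.0248) and 0.54 (adjusted p = 0.016), so it was the member that rose at both days in both fits. Without WT replicate 2 its adjusted p was 0.0936 at D0 and 0.0626 at D6.

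The core end joining genes had smaller changes. XRCC6, which encodes Ku70, fell by 0.50 at D0 (adjusted p = 0.0319) and had -0.34 at D6 (adjusted p = 0.102), and XRCC5, which encodes Ku80, had -0.10 and 0.20 (adjusted p = 0.563 and 0.232). XRCC4, the scaffold of ligase IV, had -0.20 at D0 (adjusted p = 0.369) and fell by 0.49 at D6 (adjusted p = 0.0396), and LIG4, ligase IV itself, rose by 0.57 at D0 (adjusted p = 0.0493) with 0.49 at D6 (adjusted p = 0.0735). After the correction none of these 4 was called at either day.

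POLQ (chr3:121431431-121545988, minus strand), the polymerase of theta-mediated end joining, had 653 and 427 in WT and 1174, 972 and 1034 in KO at D0, and 739 and 574 against 1846, 1770 and 981 at D6. It rose by 0.97 ± 0.29 (adjusted p = 0.0266) and 1.22 ± 0.29 (adjusted p = 0.00885), and had 0.15 and 0.26 after the correction (adjusted p = 0.544 and 0.258). The other 4 genes of its group, PARP1, PARP2, XRCC1 and LIG1, had -0.39 to 0.28 at D0 and -0.25 to 0.29 at D6, and none was called. XRCC1, a scaffold of single-strand break repair, and LIG1, the ligase of replication, were called at D6 after the correction, at 0.60 (adjusted p = 0.0241) and 0.39 (adjusted p = 0.0307).

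In the Fanconi anemia pathway, BRIP1 (chr17:61679139-61863559, minus strand), a helicase that binds BRCA1, had 250 and 145 in WT and 595, 419 and 432 in KO at D0. At D6 it had 255 and 193 in WT and 751, 718 and 487 in KO, again without overlap. It rose by 1.28 ± 0.30 (adjusted p = 0.0116) and 1.54 ± 0.30 (adjusted p = 0.00482). FANCM (chr14:45135930-45200890, plus strand), the translocase that brings the core complex to a crosslink, had 288 and 207 in WT and 515, 464 and 531 in KO at D0, and 312 and 206 against 593, 535 and 437 at D6. It was 2.03-fold higher at D0 (adjusted p = 0.0112) and 2.01-fold higher at D6 (adjusted p = 0.00812), and neither gene was called after the correction.

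USP1 (chr1:62436297-62451804, plus strand), which removes ubiquitin from FANCD2 and FANCI, was called at D6 and not at D0. It had 2290 and 2358 in WT and 2246, 2113 and 2215 in KO at D0, and 1720 and 1666 against 3299, 3351 and 2515 at D6. KO lay just below WT at D0, at -0.08 ± 0.15 (adjusted p = 0.673), and rose at D6 by 0.85 ± 0.15 (adjusted p = 0.0042), with 0.50 (adjusted p = 0.0215) after the correction. The difference of the effects was 0.94 ± 0.21 (adjusted p = 0.0614 by edgeR's quasi-likelihood test). With a block for the subclone USP1 was the 1 member called, where 552 of all genes were called. This call was lost when the correction was added to the block. Of the targets of USP1, FANCI rose by 0.58 at D6 (adjusted p = 0.0113) and FANCD2 had 0.21 (adjusted p = 0.43). FANCA, FANCC and FANCG, of the core complex, were not called at either day.

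Both mismatch repair genes rose at D6. PMS2 (chr7:5970925-6009130, minus strand), a mismatch repair endonuclease, had 194 and 88.5 in WT and 364, 315 and 344 in KO at D0, and 125 and 116 against 522, 512 and 247 at D6. It rose by 1.26 (adjusted p = 0.0272) and 1.82 ± 0.39 (adjusted p = 0.00617), and kept 1.35 (adjusted p = 0.0246) at D6 after the correction. PMS2 has near-identical pseudogene copies, which makes its reads uncertain. MSH6, which finds mismatches, had 0.04 at D0 (adjusted p = 0.864) and rose by 0.70 at D6 (adjusted p = 0.0086), and shares 4022 exonic bases with FBXO11.

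Of the checkpoint genes, TOPBP1 (chr3:133598175-133662380, minus strand), the activator of the kinase ATR, had 2077 and 1475 in WT and 3352, 3022 and 3022 in KO at D0, and 1711 and 1142 against 3481, 3285 and 2667 at D6. It rose by 0.82 (adjusted p = 0.0176) and 1.14 (adjusted p = 0.00468), with 0.51 (adjusted p = 0.0358) at D6 after the correction. CLSPN (chr1:35720218-35769978, minus strand), the adaptor claspin between ATR and the kinase CHEK1, had 944 and 659 in WT and 1346, 1282 and 1303 in KO at D0, and 692 and 530 against 1543, 1689 and 1136 at D6. Its rise was 0.71 (adjusted p = 0.0301) and 1.25 (adjusted p = 0.00418), and at D0 the sign turned to -0.08 (adjusted p = 0.65) with the correction. The kinase genes themselves were not called in the main fit or with the correction. Among the alternatives, CHEK2 was called lower at D0 by DESeq2, upper-quartile scaling, the replicate block and the fit of the compared groups alone. At D6 it was called lower with the replicate block and without KO replicate 3. CHEK1 was called lower at both days where a replicate block was added to the correction. CHEK1 had 966 in KO replicate 1 at D0 against 1842 and 1839 in the other KO libraries and 1784 and 2024 in WT, and at D6 1088 against 1796 and 1905, so that 1 subclone stood apart at both days.

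ERCC1 (chr19:45407334-45478828, minus strand), which with XPF forms the nuclease that cuts 5' of a lesion, was the member that fell at both days. Its normalized counts were 1293 and 1625 in WT and 729, 645 and 724 in KO at D0, and 2475 and 3221 against 1471, 1654 and 1722 at D6. The groups did not overlap, and the level was 2.09-fold lower at D0 (log2 fold change -1.06 ± 0.16, adjusted p = 0.0047) and 1.76-fold lower at D6 (-0.82 ± 0.16, adjusted p = 0.00511). The correction left it at -1.04 (adjusted p = 0.00622) and -0.78 (adjusted p = 0.015). The transcript of 3379 bases is shorter than the median of the list, 4196.5 bases. Without WT replicate 2 the adjusted p was 0.0738 at D0 and 0.0802 at D6. ERCC1 shares 1593 exonic bases on the opposite strand with POLR1G, listed as CD3EAP, which had 0.12 at D0 (adjusted p = 0.679) and 0.56 at D6 (adjusted p = 0.0533) and was looked up after the values of ERCC1 were seen. After the correction CD3EAP had 0.28 at D0 (adjusted p = 0.316) and rose at D6, by 0.73 (adjusted p = 0.0300). The damage sensors of nucleotide excision repair, XPC and DDB2, were not called at either day.

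**Figure D3:**
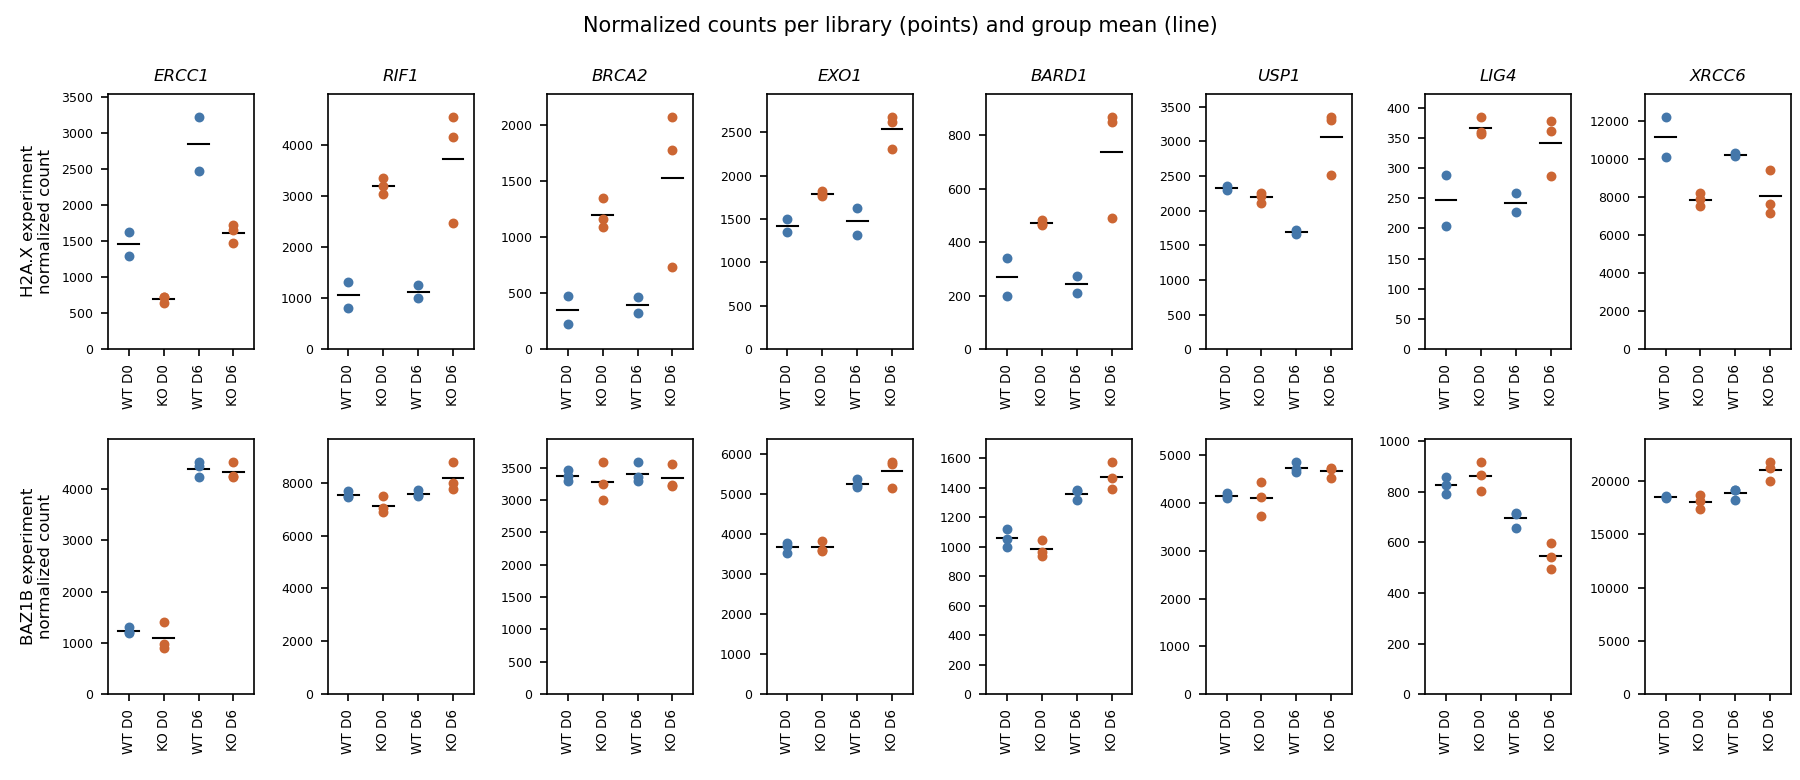
Normalized counts (vertical axes from 0) of ERCC1, RIF1, BRCA2, EXO1, BARD1, USP1, LIG4 and XRCC6, with 1 point per library, blue for WT and orange for KO, a line at each group mean, and the H2A.X experiment above the BAZ1B experiment. In the H2A.X experiment ERCC1 is lower and RIF1 higher in all KO libraries, and the KO library at D6 nearest to WT for RIF1 is replicate 3 (2469).

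Loss of BAZ1B left the repair transcripts nearly where they were in WT. At D0 no member was called by edgeR's quasi-likelihood test, where 1.25% of all 13879 genes tested rose and 2.64% fell. Of the 44, 6 had an unadjusted p below 0.05, and DESeq2 called 2, RAD51C and PARP1, where it called 736 of all genes. The 95% interval of the log2 fold change lay within ±0.5 for all 44 members, so each interval ended short of a change of that size. The largest absolute log2 fold change was 0.20, for DDB2 (adjusted p = 0.255).

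RAD51C had the smallest p at D0, with 1192, 1245 and 1170 in WT and 1334, 1346 and 1416 in KO. The groups did not overlap, and the log2 fold change was 0.18 ± 0.05 (adjusted p = 0.0701). PARP1, the sensor of single-strand breaks, had 11407, 11482 and 11305 in WT and 11084, 9282 and 9557 in KO (-0.19 ± 0.06, adjusted p = 0.084). Without KO replicate 1 at D0, 5 members were called, CHEK1, DDB2, ERCC1, PARP1 and RAD51C, and 1323 of all genes were called in that fit.

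At D6, 1 member rose and 1 fell in BAZ1B KO, both of non-homologous end joining, while 6.87% of all genes rose and 5.97% fell. XRCC6 had 19207, 19207 and 18236 in WT and 20035, 21820 and 21259 in KO, a log2 fold change of 0.16 ± 0.04 (adjusted p = 0.0251). LIG4 (chr13:108207439-108218368, minus strand) had 656, 717 and 711 in WT and 541, 599 and 495 in KO, a fall of 0.35 ± 0.08 on the log2 scale (adjusted p = 0.0119). In both genes the groups did not overlap. The other end joining genes XRCC5 and XRCC4 had 0.01 and -0.08 (adjusted p = 0.888 and 0.569). For 42 of the 44 members the 95% interval lay within ±0.5.

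Of 14 alternative fits at D6, LIG4 kept its call in 12 and XRCC6 in 8. LIG4 was lost without KO replicate 3 and where a replicate block was added to the correction. XRCC6 was lost without any one of the WT libraries at D6, LIG4 then being the 1 member called, and also without KO replicate 2, without KO replicate 3, and where only the compared groups were fitted. Without KO replicate 3 none was called. Of the genes with the smallest p in the other pathways, RAD50 had 215, 211 and 234 in WT and 256, 260.0 and 269 in KO at D6 (0.25 ± 0.13, adjusted p = 0.267). CLSPN had 3326, 3571 and 3538 in WT and 3125, 3388 and 3144 in KO at D6 (-0.11 ± 0.04, adjusted p = 0.101). At D0, FANCG of the Fanconi core complex had 1590, 1599 and 1655 in WT and 1716, 1750 and 1709 in KO (0.10 ± 0.04, adjusted p = 0.227). XPC, the damage sensor of global excision repair, had 1452, 1466 and 1636 in WT and 1704, 1622 and 1633 in KO (0.12 ± 0.05, adjusted p = 0.252), and MSH6 had 5885, 5763 and 5940 against 5468, 5772 and 5539 (-0.07 ± 0.04, adjusted p = 0.441). None of these differences passed the test.

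Most of the 44 members rose during maturation of WT cells in the BAZ1B experiment. From D0 to D6, 28 rose and 4 fell, where 33.5% of all genes rose and 35.4% fell, and the median log2 fold change of the members was 0.22 against -0.02 for all genes. In bulk RNA, a change in the cells that carry a transcript and a change in its level per cell cannot be told apart. All 5 genes of the single-strand break, ligation and theta-mediated group rose, as did 7 of 8 of the Fanconi anemia pathway, both mismatch repair genes and all 3 of nucleotide excision repair. Homologous recombination had 5 higher and 1 lower, break sensing 5 higher and 2 lower, checkpoint signalling 1 higher, and end joining 1 lower and none higher. The 20 genes of S phase and replication and the 16 of mitosis, listed as context, had medians of 0.54 and 0.50, with 18 and 15 rising and none falling. In the same libraries the summed erythroid markers went from 8052-8850 to 41469-47500 CPM, and the mast cell and eosinophil markers from 473-516 to 33.2-44.05 CPM, with PRG3 and FCER1A at 0 at D6. The part of these lists in the rise of the members was not tested.

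**Figure D4:**
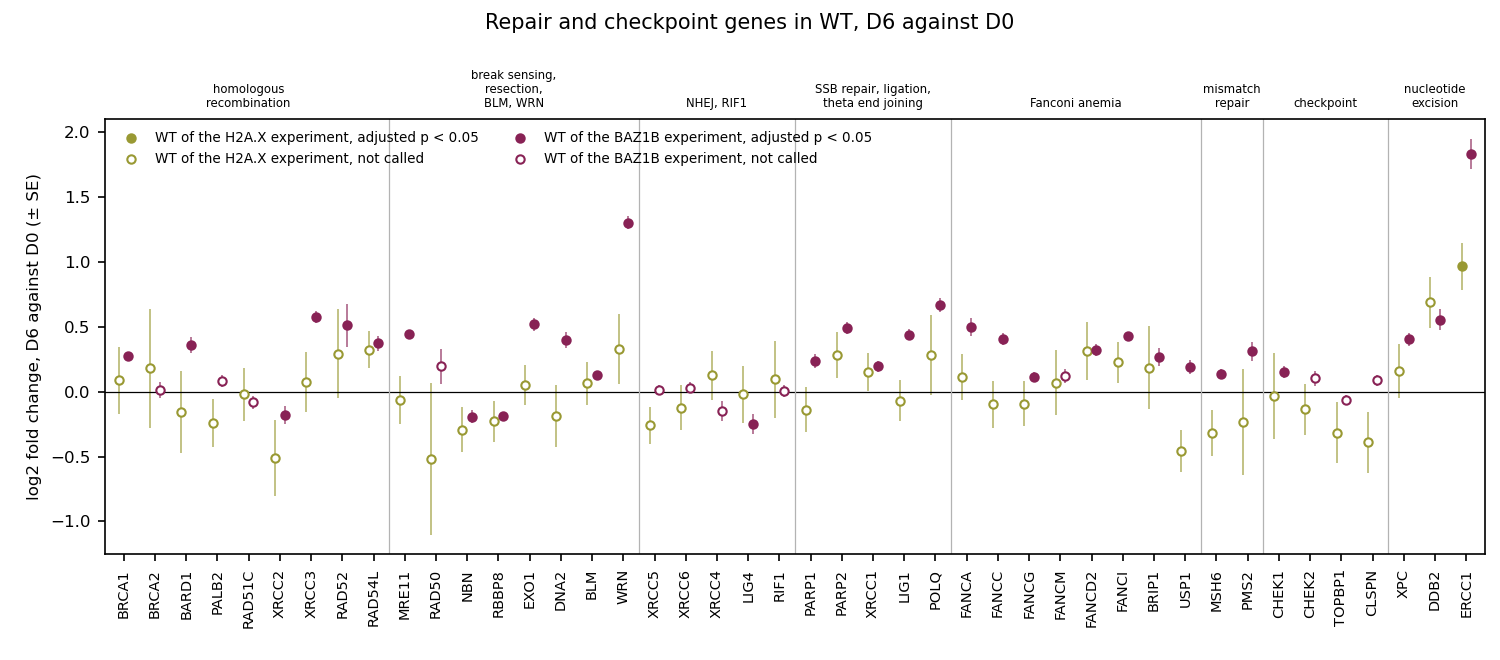
Log2 fold change of D6 against D0 in WT cells (vertical axis, with bars for the SE) for each of the 44 members by pathway, with olive for the H2A.X and purple for the BAZ1B experiment and filled points for an adjusted p below 0.05. In the BAZ1B experiment ERCC1 (1.83) and WRN (1.30) are highest and LIG4 (-0.25) is lowest, and in the H2A.X experiment 1 member, ERCC1, is called.

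ERCC1 rose most, from 1206, 1306 and 1192 in WT at D0 to 4519, 4232 and 4442 at D6, a 3.56-fold higher level (log2 fold change 1.83 ± 0.12, adjusted p = 1.96e-08). Its opposite-strand neighbour CD3EAP had -0.03 (adjusted p = 0.671). WRN, the helicase lost in Werner syndrome, went from 3364, 3369 and 3467 to 8049, 8652 and 8479, 2.47-fold higher (1.30 ± 0.05, adjusted p = 3.27e-10). The other members that rose had log2 fold changes of at most 0.67.

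POLQ rose from 2205, 2287 and 2272 to 3476, 3699 and 3589 (0.67 ± 0.06, adjusted p = 2.1e-07), and XRCC3 from 1808, 1921 and 1991 to 2735, 2805 and 2962 (0.57 ± 0.05, adjusted p = 1.62e-07). FANCI, which is clamped on DNA together with FANCD2, rose from 6370, 6268 and 6402 to 8542, 8638 and 8464 (0.43 ± 0.03, adjusted p = 7.25e-08). These rises were many times their standard errors. DDB2, which binds ultraviolet lesions, rose from 538, 587 and 574 to 776, 870 and 849 (0.55 ± 0.08, adjusted p = 5.54e-05).

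Smaller rises were seen in PMS2, from 685, 651 and 649 to 810, 884 and 766 (0.31 ± 0.07, adjusted p = 0.00243), and in CHEK1, from 3151, 3171 and 3017 to 3415, 3537 and 3420 (0.15 ± 0.05, adjusted p = 0.0137). LIG4 fell from 827, 792 and 857 to 656, 717 and 711 (-0.25 ± 0.08, adjusted p = 0.0131), and XRCC2, NBN and RBBP8 fell by 0.18, 0.19 and 0.19 on the log2 scale. The Ku genes XRCC5 and XRCC6 had 0.02 and 0.03 (adjusted p = 0.737 and 0.533), and BRCA2 had 0.01 (adjusted p = 0.867).

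In WT cells of the H2A.X experiment, ERCC1 was the 1 member called, and it rose (0.96 ± 0.18, adjusted p = 0.0352), where 0.839% of all genes rose and 1.16% fell. This call was lost without 3 of the 4 WT libraries in turn, and DESeq2 called DDB2 as well. Of the members, 4 had an unadjusted p below 0.05, and the biological coefficient of variation was 0.239 here and 0.0865 in the BAZ1B experiment. The standard errors were wide enough that only 7 of the 44 members had a 95% interval within ±0.5, so rises of the size seen for most members in the BAZ1B experiment could be missed here. The median log2 fold change of the members was -0.02, with 21 positive and 23 negative, against 37 positive and 7 negative in BAZ1B WT.

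No member's KO effect differed between D6 and D0 by edgeR's quasi-likelihood test in either experiment. In the H2A.X experiment 5 members had an unadjusted p below 0.05, and 0.302% of all genes had a higher and 1.04% a lower effect at D6. DESeq2 called 1 member (USP1) and 680 of all genes. A block for the subclone, whose libraries at both days deviate together, gave 1 call, USP1, and 552 calls over all genes. The correction gave 0 calls both with and without this block, where without it 0.589% of all genes had a higher and 1.29% a lower effect. In the BAZ1B experiment 8 members had an unadjusted p below 0.05, and the shares of all genes were 1.58% and 0.893%. DESeq2 called 2 members there (LIG4 and XRCC6) and 698 of all genes. LIG4 had the largest difference there, -0.41 ± 0.11 (adjusted p = 0.0771).

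Levels per transcript length and library size (RPKM) placed the Ku genes far above the rest. In BAZ1B WT at D0, XRCC6 had 232 ± 1.24 RPKM (SD, n = 3) and XRCC5 had 197 ± 2.87, followed by NBN at 96.2 ± 0.83, PARP1 at 76.3 ± 0.59 and LIG1 at 55.7 ± 1.86. These 5 neighbours in the order were apart by more than their spread. In H2A.X WT at D0 XRCC6 and XRCC5 were again highest, at 299 and 194 RPKM (n = 2), while LIG1, NBN and PARP1, at 67.7 ± 6.30, 67.3 ± 8.13 and 63.6 ± 3.91, did not differ beyond their spread. The lowest levels in BAZ1B WT at D0 were those of BRIP1 at 2.89, RAD52 at 2.46 and RAD50 at 0.62 RPKM, the last being uncertain for the overlap given above. By D6 ERCC1 had moved from rank 29 to rank 12 of the 44, and WRN from rank 24 to rank 14.

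Of 88 further repair genes chosen as a comparison list, 87 were tested. In H2A.X KO, 13 rose and 18 fell at D0 (median log2 fold change -0.03), and 21 rose and 16 fell at D6 (median 0.06). Among those with the smallest p were BABAM1, CENPX and MLH3 at D0, with -1.52, -1.39 and 1.05 (adjusted p = 0.00626, 0.00784 and 0.00891), and PAXX and NTHL1 at D6, with -2.09 and -2.03 (adjusted p = 0.00327 and 0.00343). After the correction 4 rose and 6 fell at D0, and 9 rose and 4 fell at D6. BABAM1 and CENPX then kept their calls at -0.86 and -0.51 (adjusted p = 0.0157 and 0.0396) and NTHL1 at -0.80 (adjusted p = 0.0254), while MLH3 had 0.32 and PAXX -0.55 (adjusted p = 0.194 and 0.0776). Apart from MLH3, with 7820 bases, their transcripts have 765 to 1377 bases, and those that fell are shorter than every member.

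In BAZ1B KO none of the 87 was called at D0 by edgeR, with RAD17, GEN1 and FANCE nearest at 0.18, 0.15 and -0.14 (adjusted p = 0.0767, 0.0809 and 0.109). At D6, 3 rose and 4 fell, led by RNF168, the ubiquitin ligase that marks histones at breaks, which fell by 0.31 (adjusted p = 0.00179), UNG at 0.21 (adjusted p = 0.0127) and ERCC2 at 0.22 (adjusted p = 0.0199). During maturation of BAZ1B WT cells 33 rose and 23 fell, with a median of 0.04, and in H2A.X WT cells none was called. The S phase list moved with the H2A.X genotype at D0, where 1 of its 20 genes rose and 10 fell (median -0.51), and the mitosis list had 5 higher and 3 lower (median 0.04). At D6 these lists had 7 higher and 3 lower (median 0.03) and 7 higher and 4 lower (median 0.30). After the correction the S phase list had none higher and 4 lower at D0 and 6 higher and none lower at D6 (medians -0.22 and 0.14), and the mitosis list had none called at D0 and 2 higher at D6 (medians 0.16 and 0.19). Their part in the members' changes was not tested.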

How the data were processed

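Poly(A) RNA of 22 HUDEP-2 libraries was sequenced. The authors deposited raw counts per gene for each experiment, made with STAR 2.7.0f and featureCounts of Subread 1.6.4 on hg38 with GENCODE 31. The submitters' processing notes also name DESeq2 1.22.1. The labels name an unstranded kit and the study's methods a stranded one, so reads of genes that overlap on opposite strands may not be told apart.

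Each experiment was fitted on its own with edgeR 4.0.16 in R 4.3.3 (quasi-likelihood test, two-sided, TMM scaling, 1 mean per group, filterByExpr set to min.count 10 and min.total.count 15). p-values were adjusted by Benjamini-Hochberg over all genes tested and called below 0.05. To normalize a count it was scaled from its own effective library size to the mean one of the experiment. SE is the log2 fold change divided by the root of F. The length and GC correction was fitted per library with mgcv 1.9.3 on genes with a mean count of at least 50, with Ensembl canonical transcripts. Of the 59087 names, 36434 were in the annotation and 756 were found under older symbols, while 311 fitted several genes and 21586 none. The main fit was tested on simulated data for KO against WT at D0, without a trend of length or GC content. The correction, the blocks and the other comparisons were not tested in this way. Figures were drawn with matplotlib 3.10.9 in Python 3.11.15.

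The members and gene lists were chosen with earlier results of these data known. All members may be named. Values in every library were set to be given for members called in KO against WT at both days (at most 8 per experiment, by the smaller of the larger p) and, in each pathway, for the member with the smallest p in each KO experiment and in maturation of BAZ1B WT; any others so given were chosen after their values were seen. Of the other repair genes, the 3 with the smallest p in each KO comparison were to be named, and 1 of them is not reported here. Alternatives were DESeq2 1.42.0, upper-quartile scaling, no filter, a threshold of 0.01, the correction, a replicate block, fits of the compared groups alone and leaving out each library.

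Same-numbered H2A.X libraries at D0 and D6 deviated together, with correlations of 0.304 to 0.609 over 5 pairs. Both WT pairs necessarily gave the same value, 0.443, since each WT group held 2 libraries. In the BAZ1B experiment the correlations were 0.0033 to 0.165 in WT and 0.157 to 0.654 in KO. The main fits treated libraries of both days as independent, and a block for the subclone was fitted only as an alternative.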

Additional observations from a re-analysis of the deposited data

Results flagged for a closer look

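USP1 in the H2A.X experiment had KO libraries below both WT libraries at D0 (log2 fold change -0.085) and above both at D6 (0.85). The difference between the days was tested, with an adjusted p of 0.0614 by edgeR's quasi-likelihood test. It was 1 of 44 members with opposite, non-overlapping groups at the 2 days in the H2A.X experiment, and there were 0 in the BAZ1B experiment. Among all genes tested the shares with this pattern were 4.13% and 1.52%.

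Maturation of WT cells went in opposite directions in the 2 experiments, without overlap of D0 and D6 libraries in either, for 2 of 44 members and for 7.59% of the 12870 genes tested in both. In the H2A.X experiment USP1 had -0.46 and MSH6 -0.32, against 0.19 and 0.14 with BAZ1B WT cells. The difference between the experiments was not tested.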

How the results depend on the processing

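The H2A.X calls depended on WT replicate 2, without which 0 members were called at D0 and 0 at D6, and on the correction for length and GC content. With the correction the members called went from 17 to 2 at D0 (median log2 fold change 0.12) and from 25 to 10 at D6 (median 0.22). With a replicate block added to the correction they were 7 (median 0.14) and 16 (median 0.24). Over all genes the calls went from 4651 to 2702 at D0 and from 5701 to 2829 at D6. They were 3515 and 3784 with the block added to the correction. The sign turned for CLSPN at D0, to -0.085 and -0.064 in these fits, and for MRE11 at D6, to -0.098 and -0.112, and to -0.075 without KO replicate 3. With the correction and without H2A.X KO D6 replicate 3, an alternative chosen after seeing the data, 19 were called (median 0.32). A threshold of 0.01 left 2 members in H2A.X KO at D0, 0 in maturation of H2A.X WT and 0 in BAZ1B KO at D6. Over all genes it left 1222, 1 and 868.

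DESeq2 called 2 members in maturation of H2A.X WT, 1 in the H2A.X difference between days, 2 in BAZ1B KO at D0 and 2 in the BAZ1B difference. Over all genes it called 1067, 680, 736 and 698 in these comparisons. Upper-quartile scaling called 1 in the H2A.X difference and gave medians of -0.022 in BAZ1B KO at D6 and -0.049 in the BAZ1B difference. Without the filter, 1 was called in the H2A.X difference, 1 in BAZ1B KO at D0 and 1 in the BAZ1B difference. Fitting only the compared groups called 1 in BAZ1B KO at D6. The correction gave a median of 0.29 in maturation of BAZ1B WT.

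The replicate block between KO and WT, where the libraries share only a number (correlations of 0.061 to 0.217 in the H2A.X and -0.052 to 0.1498 in the BAZ1B experiment), called 20 members in H2A.X KO at D0 and 27 at D6, and 0 and 2 in BAZ1B KO. Over all genes this block called 5490 at D0 and 6460 at D6 in H2A.X KO, and 585 and 1802 in BAZ1B KO. With the correction, the replicate block called 1 in BAZ1B KO at D0 and 1 at D6, and 620 and 1952 of all genes. The subclone block called 1 in the H2A.X difference (USP1), and 552 of all genes. With the correction it called 0 members there and 584 of all genes, and its median was 0.11, and 0.29 in maturation of BAZ1B WT.

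Leaving out each library in turn gave 0 to 19 members called in H2A.X KO at D0 (median 0.17 to 0.43), 0 to 30 at D6 (0.46 to 0.67), 0 to 1 in maturation of H2A.X WT (-0.14 to 0.14) and 0 to 2 in the H2A.X difference (0.117 to 0.405). It gave 0 to 5 in BAZ1B KO at D0 (0.000805 to 0.0193), 0 to 2 at D6 (-0.0084 to 0.0123), 29 to 32 in maturation of BAZ1B WT (0.22 to 0.25) and 0 to 3 in the BAZ1B difference (-0.0414 to -0.0016). The causes were not tested. The H2A.X experiment held 2 WT libraries per day, smaller totals and a biological coefficient of variation of 0.239 against 0.0865 in the BAZ1B experiment. Small changes could be missed there, and which of these mattered was not tested.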
